A study of Mus musculus with 4 samples.

Results

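Replication-dependent histone genes were examined in Ly6Chi classical monocytes that had been sorted from mouse bone marrow at a young and an old age. The members were the Gene Expression features of both count matrices whose symbol starts with Hist1h, Hist2h, Hist3h or Hist4h, which gave 69 of the 27998 features. Of these, 6 code for the linker histone H1, 19 for H2A, 19 for H2B, 12 for H3 and 13 for H4. The symbols place 55 of them in the Hist1 cluster on chromosome 13, 11 in Hist2 on chromosome 3, 2 in Hist3 on chromosome 11 and 1, Hist4h4, on chromosome 6. One symbol, Hist2h2bb, was carried by a pair of features, so each of these was kept under its Ensembl identifier.

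The cells came from unmodified C57BL/6 mice and were sorted as Ly6G- CD11b+ CD115+ Ly6Chi. In the male pool young mice were 14 weeks and old mice 27 months of age, and in the female pool 15 weeks and 26.5 months, with 5 mice per age in each pool and no treatment. Each mouse carried its own hashtag antibody, and all 10 mice of a sex went into 1 droplet library, so sex, experiment and library cannot be told apart and no level is tested between the pools. The counts are unique molecular identifiers (UMIs) from a 3′ library primed on poly(A), and are not scaled to transcript length.

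The male pool held 1227 cells and 6795341 UMIs, from 49 to 206 cells per mouse, and the female pool 6641 cells and 80113391 UMIs, from 259 to 1592 cells per mouse. Hashtag demultiplexing called 401 of the 1227 male barcodes doublets, although in these barcodes the median share of the leading hashtag was 95.1%, and each male barcode was given to the mouse of its leading hashtag. In the female pool only the singlets were kept, and no cell barcode occurred in both pools. Genes of the antigens sorted for were present, though not in every cell. Ly6c2, the gene of Ly6C, stood between 2302 and 3141 CPM (the UMIs of a gene relative to all UMIs of the mouse, on the usual counts-per-million scale) in the male mice and between 2232 and 2922 in the female mice. Csf1r (CD115) had a UMI in 54.1% of male and 90.9% of female cells, and Itgam (CD11b) in 35.5% and 66.8%. The median UMI count per cell was higher in old mice without overlap in both pools, at 5905 ± 1798 against 4083 ± 291 in males and 10976 ± 1378 against 8642 ± 399 in females (SD, n = 5 mice each), and levels below are therefore shares of each mouse's UMIs.

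Replication-dependent histone mRNAs are the known exception among the messenger RNAs of animals in that they carry no poly(A) tail. Their 3′ end is a conserved stem-loop that is bound by the protein Slbp and cut a few bases further on, and their level rises as cells enter S phase and falls when DNA synthesis ends. Some histone genes can also be read through to a distal poly(A) signal, which gives a tailed mRNA, and this form is known from differentiated cells. A library primed on poly(A) reaches the tailed form and any transcript with an internal run of A, so that the values here are not a measure of total histone mRNA. Monocyte precursors divide in the marrow and classical monocytes then leave it as cells that divide little.

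The stem-loop is shown first because the form without a tail ends a few bases past it. Its part in which transcripts were counted was not tested. Of the 69 members, 67 had a transcript in GENCODE M21 (GRCm38), and Hist1h2bm and Hist1h2bh had none there. The word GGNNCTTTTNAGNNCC was found in 42 of the 67, always with 6 paired bases in the stem and between 21 and 58 bases after the stop codon (median 31.5), and in 72 of 21901 protein-coding genes (0.329%), members included. In the other 25 members, Hist1h1b, Hist1h1a and Hist1h2bc among them, the word was not in the annotated transcript. Some of these models are short, with 312 bases for Hist1h4k and 381 for Hist1h2bn. A model that ends at the stop codon cannot hold the word, so its absence there says nothing about the gene. The 42 stem-loops came in 6 forms, and their stem followed the histone class. All 31 that belonged to H1, H2A, H2B or H3 had the stem ggctct, whereas the 11 H4 genes had ggccct in 9 cases and ggtcct in 2. The following are given as DNA, 5′ to 3′ on the coding strand, with the stem-loop in capitals between its flanking bases, for the members on which the results below turn.
Hist1h2ap (chr13:21833026-21833051, minus strand): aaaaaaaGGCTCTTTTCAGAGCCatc
Hist1h2ae (chr13:23570661-23570690, minus strand): aaacaaaGGCTCTTTTCAGAGCCattcact
Hist1h1c (chr13:23739505-23739534, plus strand): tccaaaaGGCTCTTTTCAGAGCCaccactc
Hist3h2a (chr11:58955165-58955194, plus strand): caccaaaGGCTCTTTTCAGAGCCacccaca
Hist1h4i (chr13:22040959-22040988, minus strand): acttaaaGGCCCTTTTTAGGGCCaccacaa
Hist2h4 (chr3:96262932-96262961, minus strand): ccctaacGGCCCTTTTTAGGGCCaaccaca
Hist4h4 (chr6:136803991-136804020, minus strand): ccacaaaGGCCCTTTTCAGGGCCcacaaag

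All 7 lie in the 3′ UTR of a transcript with 1 exon. The annotated transcript of Hist1h2ap ended 3 bases past the stem-loop, and the transcript holds a run of 12 A. That of Hist1h2ae ended 151 bases past the stem-loop, after a poly(A) signal word (AATAAA or ATTAAA). The transcripts of Hist1h4i, Hist1h1c, Hist2h4, Hist3h2a and Hist4h4 ran on for 330, 840, 1257, 1643 and 2445 bases, each with such a word on the way. Over all 42, 17 transcripts ran more than 200 bases past the stem-loop, 11 of them with a signal word, and are called extended below. The other 25 ended nearer, 4 of them with a signal word. The extended members held 22.5% of the histone UMIs in the male pool and 28.8% in the female pool, and those that ended near the stem-loop held 64.8% and 32.9%. These groups follow the GENCODE M21 transcripts, and the annotation used for counting may end the same genes elsewhere, so that each share or median by group holds for these models.

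A few members supplied most of the histone UMIs. The male pool held 8788 histone UMIs and the female pool 94370, of which the 3 most abundant members held 59.9% and 55.7%. Hist1h2ap (ENSMUSG00000094777, an H2A gene at chr13:21833026-21833507) led in the male pool with 4184 UMIs or 47.6%, and Hist1h1b (ENSMUSG00000058773, the linker histone H1.5, chr13:21779883-21780625) led in the female pool with 28284 UMIs or 30.0%. The 2 pools ordered these genes differently. In CPM, Hist1h2ap was at 769, 478, 663, 1007 and 617 in old males and at 650, 435, 351, 560 and 647 in young males, against 184, 214, 172, 187 and 169 in old females and 183, 195, 208, 187 and 190 in young females. Every male mouse was thus above every female mouse for this gene. For Hist1h1b the order was the opposite, with 15.2 to 50.1 CPM in the 10 male mice and 319.7 to 409.5 in the 10 female mice. The matrix headers name different versions of the counting software for the pools, and with sex, experiment and library these cannot be told apart.

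After these, the most abundant members by CPM over the 20 mice were Hist1h2ae (82.5 in the male and 117 in the female pool), Hist1h1e (27.7 and 104), Hist1h1c (73.1 and 52.0), Hist1h4i (63.4 and 59.2) and Hist1h2bc (55.1 and 30.2). They were followed by Hist3h2a (41.6 and 20.2), Hist1h1d (8.85 and 29.9), Hist1h4d (11.2 and 24.4), Hist1h1a (6.31 and 25.9) and Hist2h2ac (14.2 and 17.1). These 12 include the leading member of each class apart from H3. The most abundant H3 gene, Hist1h3e, was at 6.58 and 9.91. By class, H2A held 64.7% ± 3.1 of histone UMIs in old and 61.04% ± 1.6 in young males, and H1 10.5% ± 2.1 and 13.3% ± 1.2. In females H1 held 48.7% ± 0.55 and 47.3% ± 1.3, and H2A 32.5% ± 0.27 and 32.1% ± 1.1 (SD, n = 5 mice each). Because the counts come from 3′ ends of tailed or internally primed RNA, these shares order the genes by UMIs and not by their amount of mRNA.

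**Figure D1:**
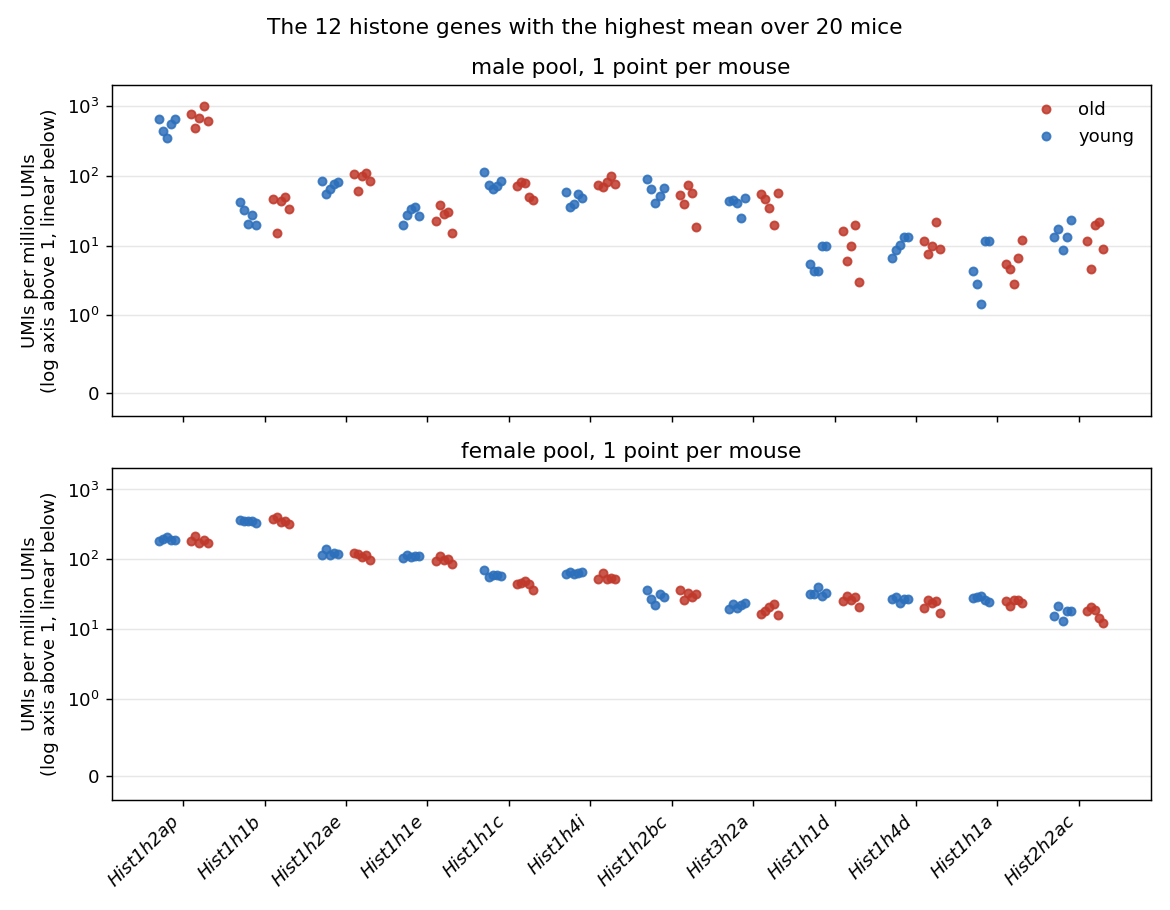
CPM (log axis above 1, linear below) of the 12 histone genes with the highest mean over the 20 mice, in the male pool (top) and the female pool (bottom), with 1 point per mouse and old and young mice side by side. Hist1h2ap stands highest in the male pool, and Hist1h1b, at 319.7 to 409.5, in the female pool.

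Of the 69 members, 63 were detected in the male and 64 in the female pool. Hist1h2aa, Hist1h2ba, Hist1h2bq, Hist1h2br and Hist2h2aa2 had 0 UMIs in both pools, which allows up to 0.441 CPM in the male and 0.0374 in the female pool by a limit of 3 counts per pool. Hist1h1t, the testis linker histone, had 0 UMIs in males and 4 in females. These limits cover counting error only, and near-identical copies weaken them further. All 50-base words of Hist2h2aa2 also occur in another member, in the first place Hist2h2aa1, and the shared proportion was 97.3% for Hist1h2bq and 93.1% for Hist1h2ap, whose nearest copy is Hist1h2ao. Reads that match several genes equally are not assigned by the counting software, so the level of the 6 members with over 90% shared words is uncertain.

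The cells were next sorted by their own replication and mitosis transcripts, since histone mRNA is made in S phase. Each cell was thinned to 2000 UMIs and called Mcm-high with at least 2 UMIs of Mcm2, Mcm3, Mcm5, Mcm6 and Mcm7 together, subunits of the helicase that opens replicating DNA. It was called mitosis-high with at least 2 of Top2a, Mki67, Ube2c, Birc5 and Nusap1. The cut falls within a range and marks no cell type, as 16.2% of male and 17.9% of female cells had 1 thinned Mcm UMI and 8.13% and 8.09% had 2. Thinning left out 58 male and 4 female cells.

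Histone UMIs were lowest in cells with neither signature and highest in cells with both. In the female pool they made up 3.94 ± 0.65 of 10000 UMIs in cells with neither (3670 cells), 8.26 ± 1.45 in cells that were Mcm-high only (587 cells), 17.1 ± 1.75 in cells that were mitosis-high only (1617 cells) and 21.1 ± 2.08 in cells with both (763 cells; SD, n = 10 mice each). In the male pool the same classes stood at 6.96 ± 2.70 (770 cells, 10 mice), 9.70 ± 5.78 (126 cells, 9 mice), 23.6 ± 5.12 (202 cells, 10 mice) and 27.7 ± 7.27 (61 cells, 8 mice), over the mice with at least 5 such cells. In both pools the mitosis signature thus went with more histone UMIs than the Mcm signature did, as a description without a test. The label mitosis-high names its 5 genes and does not place a cell in mitosis. Of the 1350 Mcm-high cells in the female pool, 763 carried it as well. In females the mouse ranges of the mitosis-high only class, 13.2 to 18.8, and of the Mcm-high only class, 5.60 to 10.3, did not overlap. Depth moved with these classes, with a mean of the mice's median UMIs per cell of 7925 in female cells with neither signature and 15878 to 17908 in the other classes, and its part in the result was not tested.

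**Figure D2:**
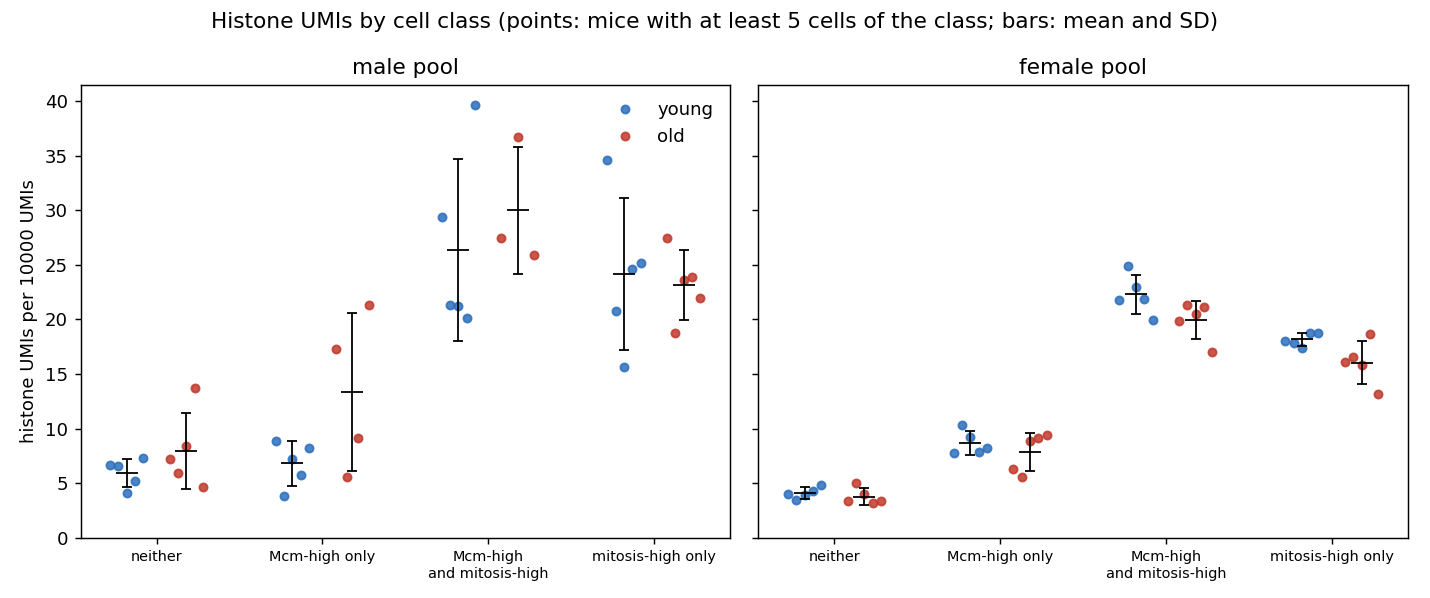
Histone UMIs per 10000 UMIs in the 4 classes of cells by thinned Mcm and mitosis UMIs, for the male (left) and female (right) pool. Points are mice with at least 5 cells of the class, and bars give the mean and SD per age. The classes with the mitosis signature sit highest in both pools, at a mean of 21.1 for female cells with both signatures against 3.94 with neither.

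Members with at least 100 UMIs in a pool were ordered over the 4 classes by their mean CPM. Of 46 such members in the female pool, 29 were highest in cells with both signatures and 15 in mitosis-high only cells. Hist1h1b went from 53.9 ± 23.8 in cells with neither to 248 ± 48.2, 534 ± 43.9 and 731 ± 55.0 in Mcm-high only, mitosis-high only and double-high cells, a ratio of 13.6 between the last and the first. Hist1h2ap covered a similar span, from 31.6 ± 11.1 to 379 ± 39.1, and Hist1h1a, the H1.1 gene, went from 4.97 ± 2.34 to 58.0 ± 9.08. Of 10 such members in the male pool, 5 were highest in cells with both signatures and 4 in mitosis-high only cells, with Hist1h2ap at 207 ± 162 in cells with neither and 1734 ± 598 in cells with both.

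Hist3h2a (ENSMUSG00000078851, chr11:58954685-58956830), an H2A gene of the small Hist3 cluster, was highest in cells with neither signature in both pools, at 31.4 ± 3.14 in females and 53.5 ± 19.7 in males. It was lowest in Mcm-high only cells, at 6.81 ± 5.34 and 11.6 ± 14.1. In the female pool Hist1h2bc, the most abundant H2B gene, was the only member with 100 or more UMIs highest in Mcm-high only cells. It stood there at 44.97 ± 12.8, against 38.1 ± 7.43 with neither and 16.9 ± 5.73 with both. In the male pool it was highest in mitosis-high only cells (71.9 ± 31.3). Hist1h1c, which codes for H1.2 and is known to be expressed outside S phase as well, was highest in mitosis-high only cells in both pools (58.6 ± 10.3 in females and 83.9 ± 48.7 in males), with 53.3 ± 13.4 in female cells with neither signature, 51.8 ± 13.03 with both and 29.1 ± 7.32 in Mcm-high only cells.

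Whether members differed between Mcm-high and Mcm-low cells (0 or 1 thinned UMI) was tested on summed counts with the mouse as a block, by the two-sided quasi-likelihood test of edgeR with Benjamini-Hochberg adjustment over all genes. Mcm-low cells include the mitosis-high only cells (1617 in females and 202 in males), so the test does not set dividing against resting cells. A member can thus differ over the 4 cell classes above without a difference here. In the female pool 26 of 41 members tested were higher in Mcm-high cells and 3 were lower, when 34.8% of all 10002 genes were higher and 36.2% lower. The median log2 fold change of the 41 was 0.54, against -0.02 over all genes, and 34 of them were positive. By class, 4 of 5 H1 genes rose, 7 of 10 H2A, 5 of 12 H2B, 6 of 8 H3 and 4 of 6 H4. The class medians were 0.54, 0.67, 0.31, 0.76 and 0.35. Mcm-high cells were the deeper ones, with the mice's median UMIs per cell between 15627 and 21126 against 7540 and 10813 in Mcm-low cells, and the part of depth was not tested.

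Hist1h1a changed most. It stood at 37.0 to 53.6 CPM in the Mcm-high cells of the 10 female mice (median 47.0) and at 13.1 to 21.3 (median 17.1) in their Mcm-low cells, without overlap. Its log2 fold change was 1.42 ± 0.07 (SE), with an adjusted p of 1.70e-17 by edgeR. Hist1h1b stood at 482.6 to 595.6 (median 529.6) against 237 to 358 (median 271), with a log2 fold change of 0.97 ± 0.04, and Hist1h2ap at 246 to 327 (median 272) against 127 to 184 (median 151), with 0.88 ± 0.04. For both genes each Mcm-high sum lay above each Mcm-low sum. Hist1h2ae, at 136 to 219.7 (median 159) against 69.6 to 111 (median 103.5), gave 0.75 ± 0.06. Hist1h4i, at 64.4 to 99.4 (median 80.0) against 42.8 to 59.3 (median 48.5), gave 0.69 ± 0.05. Adjusted p by edgeR was 5.05e-19, 6.04e-18, 7.24e-13 and 3.35e-13 for these 4 genes. The H2B genes Hist1h2bm and Hist1h2bk rose by 1.22 ± 0.16 and 1.15 ± 0.28 on the log2 scale at low levels, with medians in Mcm-high cells of 8.40 and 2.75 CPM.

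The remaining members that rose in the female pool lay between 0.29 and 0.95 on the log2 scale. In descending order they were Hist1h2ak (0.95), Hist1h3d (0.90), Hist1h3a (0.90), Hist1h3b (0.84), Hist1h3i (0.82), Hist1h2bj (0.75), Hist1h2ag (0.73), Hist1h3c (0.69), Hist2h2ac (0.69), Hist1h2bh (0.66), Hist1h2af (0.65), Hist1h4h (0.59), Hist1h3e (0.55), Hist1h1d (0.54), Hist1h2ab (0.50), Hist2h4 (0.37), Hist1h4d (0.33), Hist1h2be (0.29) and Hist1h1e (0.29). The 6 H3 genes that passed the test thus stood at 0.55 or higher. Several of these calls depended on the cut. With at least 3 thinned Mcm UMIs, Hist1h4d turned to -0.11 (adjusted p of 0.275 by edgeR), and Hist1h1e (0.00677), Hist1h2ab (0.01), Hist1h3e (0.11), Hist1h2af (0.19) and Hist1h2bh (0.20) no longer passed. Hist1h4h, Hist1h3d, Hist1h2bk, Hist1h3b and Hist1h2ag also lost their call there, at 0.44 to 0.67. Hist1h2bh lost it by DESeq2, without a filter on low counts and without young female 1, 2, 4 or 5 (lowest 0.54), and Hist1h2ag without old female 3 (0.63). Hist2h4 lost its call without old female 3 or 4 or young female 4 or 5 (lowest log2 fold change 0.24), and Hist1h2be without old female 1, 3, 4 or 5 or young female 2 or 4 (lowest 0.22).

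The 3 members that fell were Hist3h2a, Hist3h2ba and Hist1h1c. Hist3h2a stood at 3.92 to 17.4 CPM in the Mcm-high cells (median 10.5) and at 20.04 to 27.7 (median 25.0) in the Mcm-low cells of the female mice, again without overlap. Its log2 fold change was -1.21 ± 0.10, with an adjusted p of 2.74e-12 by edgeR. Its neighbour Hist3h2ba, the only other member of the Hist3 cluster, gave -0.83 ± 0.30 (adjusted p of 0.0145 by edgeR) from a median of 2.88 in Mcm-low cells. For Hist1h1c the ranges overlapped, 25.6 to 55.4 against 40.9 to 75.6, with -0.36 ± 0.06 and an adjusted p of 2.78e-06 by edgeR. Hist1h2bc differed by -0.05 ± 0.09 (adjusted p of 0.637 by edgeR), so that no difference between the classes was detectable for the leading H2B gene.

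The male pool allowed a test of 8 members. Of these, 3 were higher and 2 lower in Mcm-high cells, when 19.1% of 4696 genes were higher and 19.8% lower. Hist1h2ap stood at 488 to 1154 CPM (median 930) in Mcm-high and 263 to 1030 (median 555) in Mcm-low cells of the 10 mice, which overlapped, and gave a log2 fold change of 0.64 ± 0.13. Hist1h2ae gave 0.65 ± 0.17 and Hist1h4i 0.44 ± 0.16, with adjusted p of 2.72e-04, 0.00290 and 0.0289 by edgeR for the 3 genes. Hist3h2a fell here too, by 1.43 on the log2 scale (SE 0.29, adjusted p of 2.60e-04 by edgeR), and so did Hist1h1c, by 0.75 (SE 0.20, adjusted p of 0.00419 by edgeR). Hist1h1b, called in females, differed by 0.19 ± 0.23 in males (adjusted p of 0.548 by edgeR). With a cut of 3 thinned UMIs, or with 4000 UMIs and a cut of 3, none of the male members remained called higher by edgeR, with Hist1h2ap at 0.20 in both, while 2 stayed called lower. Hist1h4i lost its call under each of the 5 alternatives and without old male 1 (log2 fold change 0.31), old male 2 (0.39) or young male 3 (0.42), and Hist1h1c with HTODemux singlets (adjusted p of 0.0595 by edgeR).

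**Figure D3:**
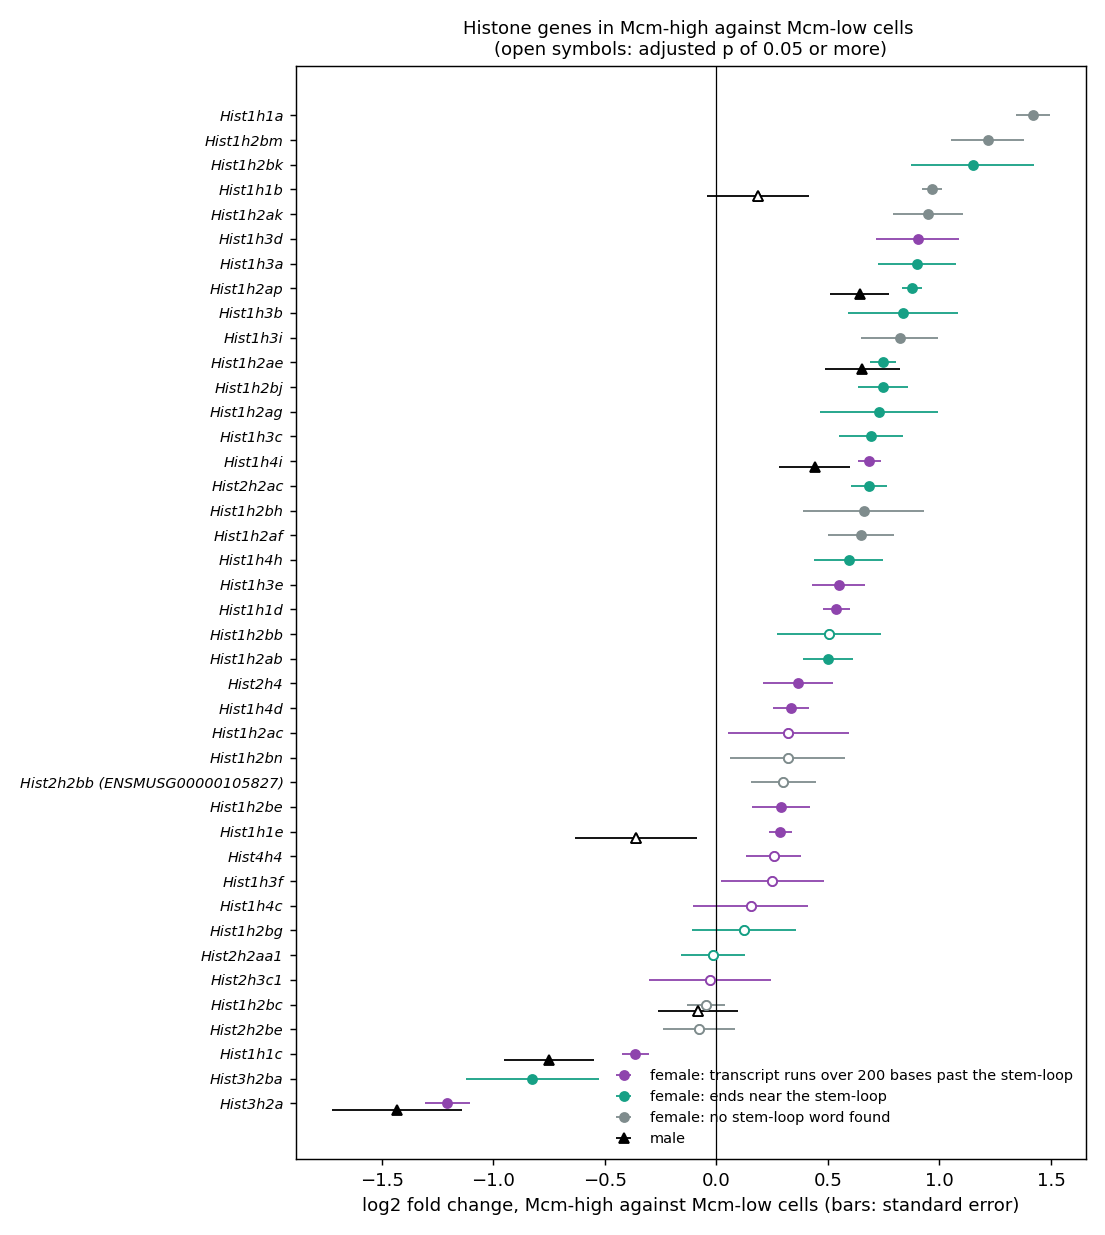
Log2 fold change of each histone gene in Mcm-high against Mcm-low cells, with its standard error, for the 41 members tested in the female pool (circles, coloured by the end of the annotated transcript) and the 8 tested in the male pool (triangles). Open symbols have an adjusted p of 0.05 or more, and Hist3h2a lies farthest to the left, at -1.21 in females and -1.43 in males.

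Set against the end of their annotated transcripts, the 15 female members tested that end near the stem-loop had a median log2 fold change of 0.69, with 11 called higher and 1 lower. The 15 tested extended members had a median of 0.29, with 8 called higher and 2 lower. The 9 tested without the stem-loop word in their annotated transcript had a median of 0.65, with 5 called higher. Both members without a transcript were called higher. The groups spanned overlapping ranges, -0.83 to 1.15 and -1.21 to 0.90 for the first pair, and the difference between them was not tested. In the male pool both members that end near the stem-loop, Hist1h2ap and Hist1h2ae, were called higher, and of the 4 extended members 1, Hist1h4i, was higher and 2 were lower. None of the male members stayed called higher with a cut of 3 thinned UMIs. Over all genes 34.8% were higher and 36.2% lower in females, and 19.1% and 19.8% in males.

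The promoters of 4 members that moved in different ways are printed next, from RefSeq (GRCm38.p6), each 250 bases before to 50 after the gene's start. RefSeq held a promoter for 60 of the 69 members. Both strands were searched for the octamer ATTTGCAT, which is bound by Oct-1 and known from H2B promoters, and for CCAAT, the box bound by the NF-Y complex. The other words searched were TATAAA, the usual form of the TATA box, and the E2F word TTTGGCGC, a form of the site of E2F factors. A match is in capitals, as it reads on the printed strand. Hist1h1b rose in Mcm-high cells of the female pool, Hist1h2ae and Hist1h4i rose there in both pools, and Hist3h2a fell in both.
Hist1h1b (chr13:21780576-21780875, minus strand): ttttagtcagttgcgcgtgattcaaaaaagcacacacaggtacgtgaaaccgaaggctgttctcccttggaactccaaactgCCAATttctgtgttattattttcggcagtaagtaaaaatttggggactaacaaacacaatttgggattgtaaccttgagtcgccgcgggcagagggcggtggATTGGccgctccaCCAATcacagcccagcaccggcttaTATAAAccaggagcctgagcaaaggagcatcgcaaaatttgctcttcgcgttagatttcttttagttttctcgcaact
Hist1h2ae (chr13:23571171-23571470, minus strand): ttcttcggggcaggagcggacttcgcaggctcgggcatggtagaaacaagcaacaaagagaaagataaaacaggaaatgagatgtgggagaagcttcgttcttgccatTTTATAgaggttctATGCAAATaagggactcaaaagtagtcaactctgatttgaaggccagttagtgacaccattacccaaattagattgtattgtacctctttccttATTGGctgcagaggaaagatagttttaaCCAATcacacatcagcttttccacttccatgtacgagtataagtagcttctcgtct
Hist3h2a (chr11:58954435-58954734, plus strand): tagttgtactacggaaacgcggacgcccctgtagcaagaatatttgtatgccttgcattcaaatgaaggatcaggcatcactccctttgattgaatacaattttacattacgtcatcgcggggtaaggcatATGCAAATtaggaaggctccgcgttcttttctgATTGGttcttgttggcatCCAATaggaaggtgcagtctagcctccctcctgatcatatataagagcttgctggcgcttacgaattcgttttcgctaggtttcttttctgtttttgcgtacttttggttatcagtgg
Hist1h4i (chr13:22041313-22041612, minus strand): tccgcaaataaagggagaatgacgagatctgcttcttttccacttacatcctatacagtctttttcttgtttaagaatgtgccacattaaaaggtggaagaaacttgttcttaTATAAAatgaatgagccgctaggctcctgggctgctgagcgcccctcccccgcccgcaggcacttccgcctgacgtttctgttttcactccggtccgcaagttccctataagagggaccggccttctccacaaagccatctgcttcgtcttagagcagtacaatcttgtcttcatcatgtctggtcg

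The octamer and CCAAT differed in frequency between the histone classes. The octamer was found in 7 of 18 H2A and 6 of 14 H2B promoters and in none of the 6 H1, 10 H3 and 12 H4 promoters, against 1.74% of all 32851 promoters. H2A and H2B genes often lie head to head, so that one octamer can serve a pair of windows, as for Hist1h2ae and its neighbour Hist1h2bg, where it lies 128 and 59 bases before the starts. CCAAT was found in all 48 promoters of H1, H2A, H2B and H3 genes but in 3 of 12 H4 promoters (all promoters 37.4%), TATAAA in 35 of 60 and in every class (all promoters 13.6%) and TTTGGCGC in none (all promoters 0.514%). Both Hist3h2a and Hist1h2ae, which moved in opposite directions between Mcm-low and Mcm-high cells, held the octamer and CCAAT. A match is a description of the letters in these windows.

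Old and young mice were compared first by the share of cells with each signature. Mcm-high cells made up 18.2, 17.6, 23.7, 14.9 and 16.7% of cells in old males and 12.3, 13.7, 17.4, 20.5 and 15.1% in young males, and the groups overlapped (two-sided exact permutation p = 0.286). In females they made up 24.5, 23.6, 19.2, 18.3 and 23.9% against 21.0, 20.5, 18.5, 20.04 and 19.1%, which overlapped as well (exact permutation p = 0.167). Mitosis-high cells stood at 28.8% ± 13.3 against 21.2% ± 2.7 in males (exact permutation p = 0.246; without old male 4, with 51.1%, the difference was 2.07 instead of 7.62 points, exact permutation p = 0.492) and at 38.8% ± 5.7 against 35.7% ± 1.6 in females (exact permutation p = 0.278; SD, n = 5 mice each). The smallest p that 5 against 5 mice allow is 0.0079, and after adjustment over the 4 tests each exact p was 0.286.

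In males, histone UMIs made up 15.6, 10.6, 14.5, 18.6 and 12.2 of 10000 UMIs in the old mice and 13.4, 10.1, 8.71, 11.7 and 13.5 in the young mice. The groups overlapped, with means of 14.3 ± 3.12 and 11.5 ± 2.09. Old male 4, the highest of the 10, had 49 cells, of which 51.1% were mitosis-high and 14.9% Mcm-high. All 5 classes overlapped in males, with H2A at 9.28 ± 2.28 against 7.03 ± 1.43, H3 at 0.55 ± 0.15 against 0.36 ± 0.07 and H4 at 1.54 ± 0.26 against 1.10 ± 0.24, while H1 (1.47 against 1.51) and H2B (1.45 against 1.47) had nearly equal means (SD, n = 5 mice each).

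In females, the total was 11.4, 12.7, 11.1, 11.4 and 10.0 in the old and 12.2, 12.7, 12.4, 12.2 and 12.1 in the young mice, and only old female 2 was not below every young mouse, with means of 11.3 ± 0.97 and 12.3 ± 0.25. The core histones H3 and H4 separated the ages in this pool. H3 stood at 0.33, 0.38, 0.31, 0.35 and 0.33 in old against 0.43, 0.48, 0.49, 0.41 and 0.46 in young mice, and H4 at 0.93, 1.15, 0.93, 1.02 and 0.88 against 1.19, 1.34, 1.21, 1.19 and 1.21, both without overlap. They were also lower as a share of the histone UMIs, with H3 at 3.02% ± 0.19 against 3.68% ± 0.23 and H4 at 8.66% ± 0.37 against 9.95% ± 0.32 (SD, n = 5 mice each). H1, at 5.52 ± 0.48 against 5.83 ± 0.14, H2A, at 3.68 ± 0.34 against 3.96 ± 0.19, and H2B, at 0.80 ± 0.04 against 0.86 ± 0.04, overlapped. With each cell thinned to 2000 UMIs, an alternative chosen after seeing the data, the H3 difference shrank from -0.113 to -0.0569. That of H2B shrank from -0.0623 to -0.00271, while H1 went from -0.309 to -0.542 and the total from -1.01 to -1.11. H2A (-0.277 to -0.271) and H4 (-0.245 to -0.241) changed little. With the leading hashtag for every barcode the H3 difference was -0.0590 and that of H4 -0.165. These sums over members carry no test. Fewer histone-expressing cells and less histone RNA per cell cannot be told apart in them.

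**Figure D4:**
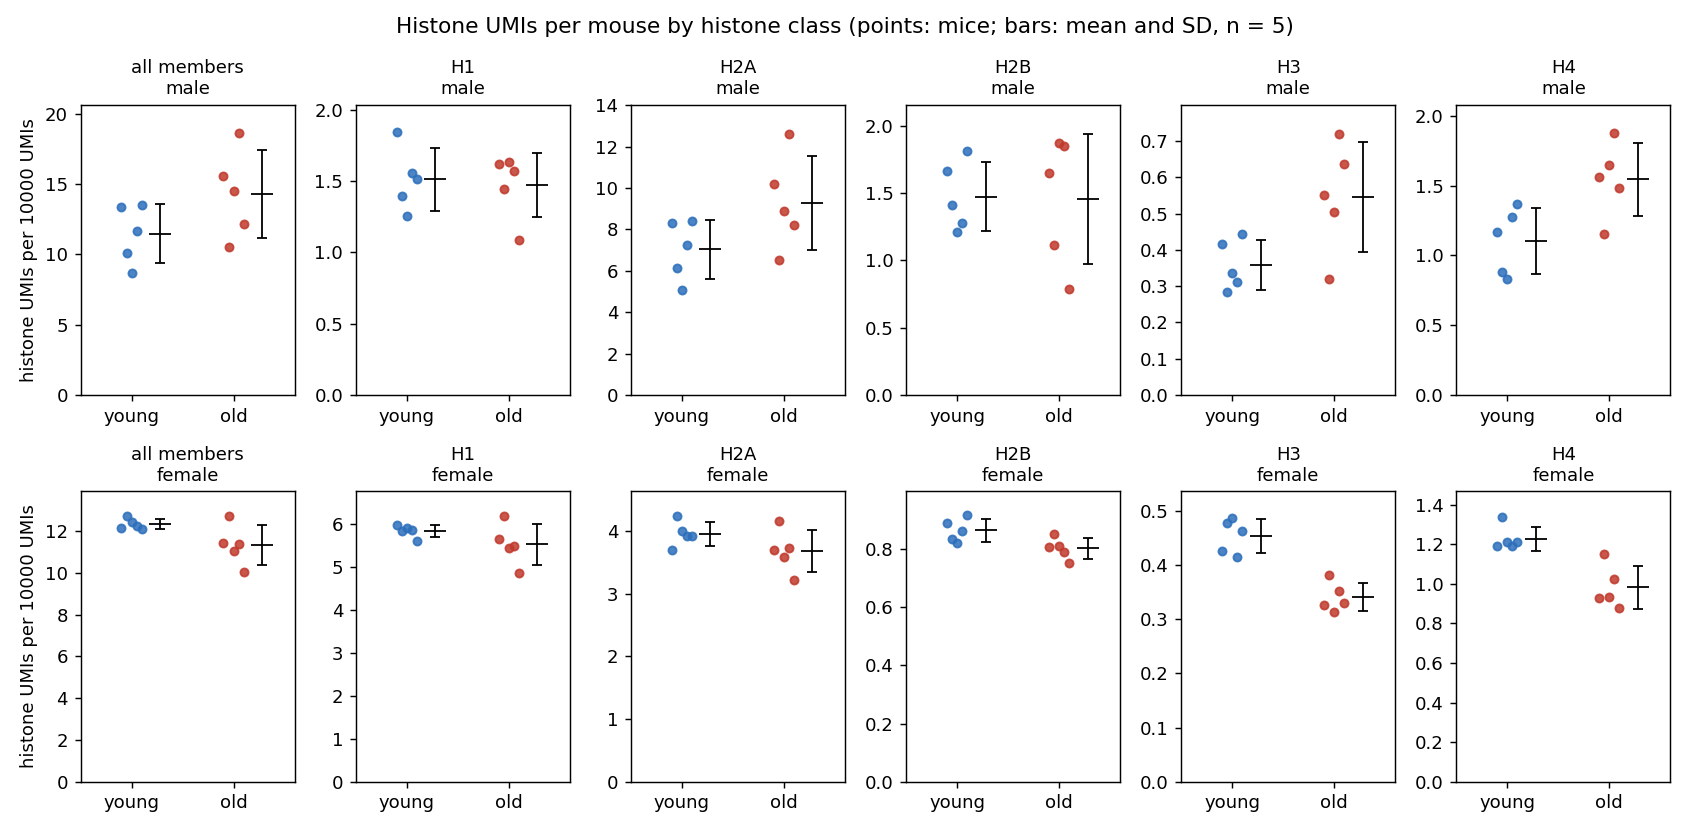
Histone UMIs per 10000 UMIs per mouse, for all members and for each histone class, in the male (top) and female (bottom) pool. Points are mice, bars give the mean and SD of 5 mice, and each axis starts at 0. The old and young female mice are apart for H3 and H4, and each of the other panels overlaps.

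The age effect on single members was tested on the summed counts of each mouse by the same edgeR test, within each pool. In females 3 of 42 members tested were lower in old mice and none was higher, when 3.42% of 10074 genes were called in either direction and 1.40% were lower in old mice. At an unadjusted p under 0.05 there were 13 of the 42, against 16.5% of all genes. DESeq2 called 4 of the 42, all lower, when 237 genes were higher and 153 lower of all 10074. The direction was shared more widely than the calls. The log2 fold change was negative for 38 of 42 members, against 50.3% of all genes, with a median of -0.30 against -0.00123 over all genes. By class 4 of 5 H1, 9 of 10 H2A, 10 of 12 H2B, 9 of 9 H3 and 6 of 6 H4 genes were negative, with medians of -0.16, -0.12, -0.30, -0.42 and -0.35. The ages did not overlap for 5 of the 42 members, all lower in old mice, against 5.74% of all genes. With every barcode given to its leading hashtag, 8 of 50 members tested were positive and the median was -0.17.

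Hist1h1c (ENSMUSG00000036181, chr13:23738808-23740367) was the most abundant member called. It stood at 44.6, 45.4, 49.1, 44.1 and 35.8 CPM in old females and at 69.2, 55.1, 59.4, 58.9 and 58.3 in young females. Each old mouse was below each young mouse, with a log2 fold change of -0.45 ± 0.08 (adjusted p of 0.00465 by edgeR). The H4 gene Hist2h4 (ENSMUSG00000091405, chr3:96261682-96263311) stood at 5.12, 6.84, 4.04, 5.92 and 3.81 in old and at 7.84, 10.0, 9.55, 8.25 and 8.74 in young females, also without overlap, and fell by 0.78 on the log2 scale (SE 0.15, adjusted p of 0.00980 by edgeR). The H4 gene Hist4h4 (ENSMUSG00000096010, chr6:136801553-136804415) stood at 5.48, 7.46, 5.18, 6.64 and 7.79 against 9.05, 14.6, 12.4, 8.74 and 9.48 and fell by 0.68 (SE 0.17, adjusted p of 0.0348 by edgeR). Its call was lost in 6 of the 10 fits that left out 1 mouse (old female 1 or 3, or young female 1, 2, 3 or 5), with the log2 fold change between -0.78 and -0.56. All 3 have an extended transcript, a group in which the 15 tested members had a median of -0.39, against -0.13 for the 15 that end near the stem-loop. The difference between these groups was not tested.

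The H3 genes Hist1h3e and Hist1h3d were the other non-overlapping members and missed the threshold. Hist1h3e stood at 8.04, 9.74, 7.72, 9.01 and 7.31 against 9.95, 12.4, 12.4, 10.3 and 12.2 (log2 fold change -0.42 ± 0.11, adjusted p of 0.0511 by edgeR), and Hist1h3d gave -0.62 ± 0.17 (adjusted p of 0.0525 by edgeR). The leading members of the female pool, Hist1h1b, Hist1h2ap and Hist1h2ae, by contrast, sat near 0. Hist1h1b gave 0.04 ± 0.05, Hist1h2ap -0.05 ± 0.06 and Hist1h2ae -0.11 ± 0.07, with adjusted p of 0.818, 0.764 and 0.457 by edgeR. Among the next most abundant members Hist1h1c was called, as given above. Hist1h1e gave -0.16 ± 0.06, Hist1h1d -0.31 ± 0.09, Hist1h4d -0.24 ± 0.10, Hist1h2bc 0.06 ± 0.10 and Hist2h2ac -0.07 ± 0.13, none of which passed. Leaving out old female 4 raised the number of members called to 5, adding Hist1h1d and Hist1h3e, and giving every barcode to its leading hashtag raised it to 5 as well, adding Hist1h1d and Hist1h3d.

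In males edgeR called 0 of the 10 members tested, as it called 0 (0%) of all 5656 genes. At an unadjusted p under 0.05 there were 4 of the 10, against 10.9% of all genes. DESeq2 called 1 of 10, Hist1h4i, when 12 genes were higher and 10 lower of all 5656. The log2 fold change was positive for 7 members and negative for 3, against 48.6% negative over all genes, and the median was 0.33, against 0.01. With HTODemux singlets only, 4 of the 8 members tested were positive and the median was 0.24. The member with the lowest adjusted p was Hist1h4i (ENSMUSG00000060639, an H4 gene at chr13:22040636-22041362). It stood at 73.1, 68.4, 82.4, 100.2 and 75.6 CPM in old and at 57.9, 35.6, 39.3, 54.0 and 47.7 in young males. It was the only 1 of the 10 whose ages did not overlap (2.12% of all genes), with a log2 fold change of 0.74 ± 0.16 and an adjusted p of 0.125 by edgeR. The adjusted p was 0.0322 by DESeq2 and 0.0120 by edgeR without a filter on low counts. Hist1h2ap gave 0.41 ± 0.18 and Hist1h2ae 0.35 ± 0.16, with adjusted p of 0.396 and 0.445 by edgeR, and Hist1h1c, called in females, gave a negative value here too, -0.28 (adjusted p of 0.602 by edgeR).

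**Figure D5:**
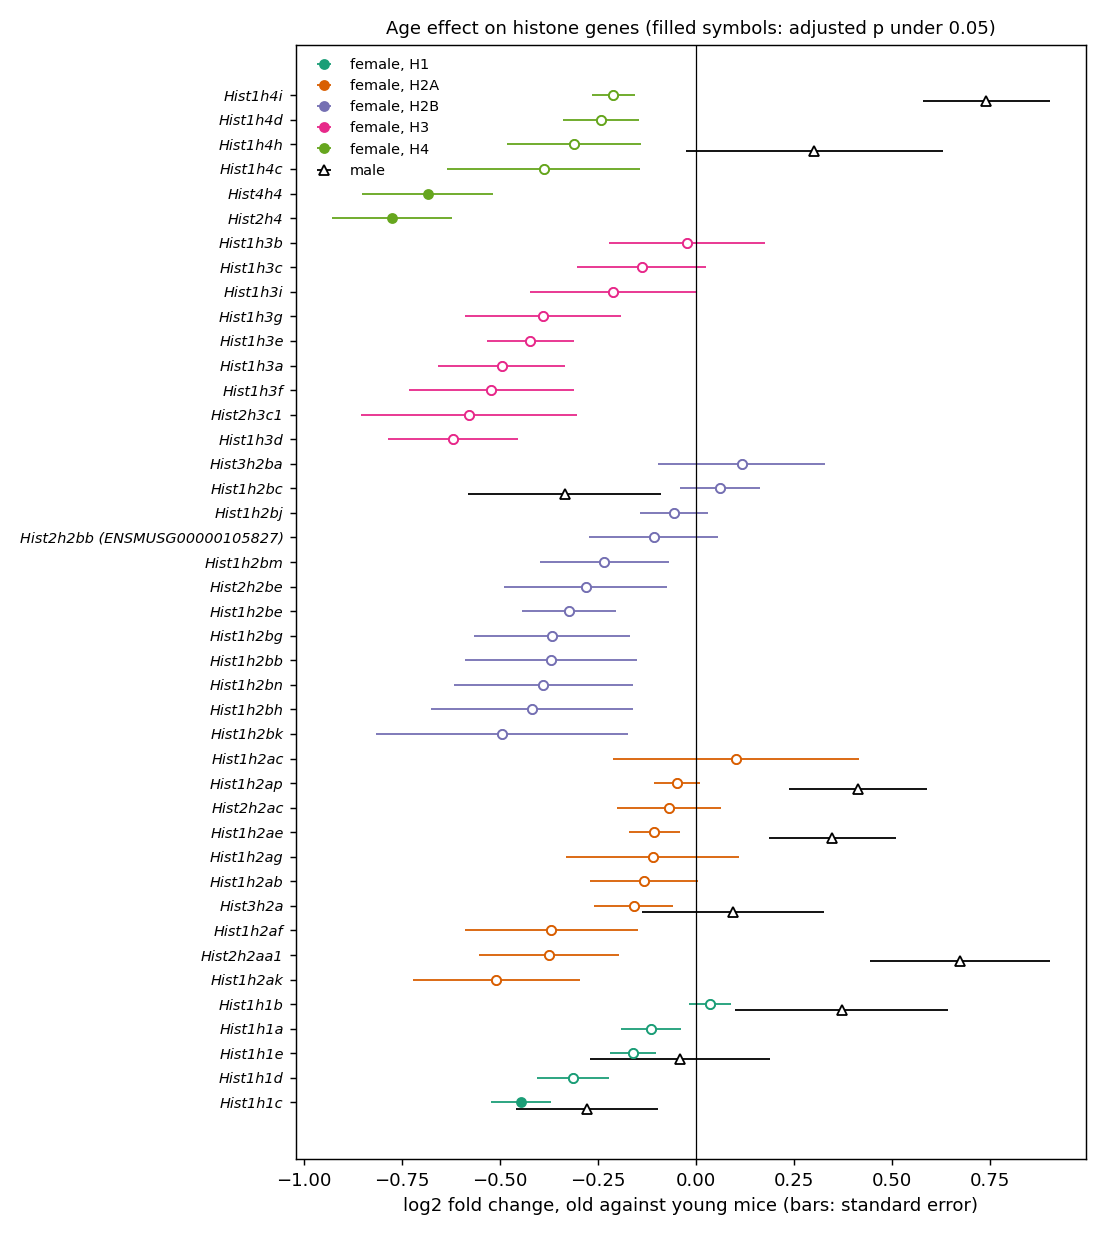
Log2 fold change of old against young mice for each histone gene tested in the female pool (circles, by histone class, with standard errors) and for the 10 tested in the male pool (triangles). Filled symbols have an adjusted p under 0.05. Of the female values 38 of 42 lie below 0, and 7 of the 10 male values lie above it.

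Levels of other cell types and of the cell cycle are given beside these values, and no gene of the mitosis list passed the age test. The summed level of 7 progenitor markers was 3553 CPM in old and 2645 in young males, with 7 of 7 higher in old mice, and 6062 and 6229 in females, with 2 of 7 higher. For the sorted cells themselves, 6 classical monocyte markers summed to 5086 against 5805 in males, with 1 of 6 higher in old mice. In females they summed to 6469 against 5497, with 2 of 6 higher. The 6 neutrophil markers summed to 1727 against 1218 in males, with 3 of 6 higher in old mice, and to 122 against 382 in females, with 1 of 6 higher. The male sum was mostly Camp, at 10.8 to 2738 CPM in old and 4.94 to 1919 in young mice, which overlapped. Some other markers did not overlap. In males Elane stood at 994 to 1791 CPM in old and 810 to 981 in young mice. Ms4a3 stood at 96.5 to 221 against 70.8 to 88.4. In old females Chil3 (1095 to 2718 against 703 to 911) and Ly6c2 (2358 to 2922 against 2232 to 2356) were higher. Cd34 was lower there, at 8.41 to 14.8 against 17.3 to 20.1. Over all genes 2.12% were without overlap in males and 5.74% in females. All 15 mitosis genes had a positive log2 fold change in old males (median 0.30), and 6 of 15 in old females (median -0.00261). Of 5 B-cell markers 3 were at 0 in males and 1 in females, while Cd79b had a UMI in 8.72% of male and 23.7% of female cells. The part of these cells in the histone values was not tested.

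The difference of the age effect between the pools was tested by the interaction term of 1 edgeR model over all 20 mice, in which 36 members could be tested. It was called for 1 of them, Hist1h4i, when 2 of 8893 genes (0.0225%) were called. The members were chosen with this call already known, so the share called among them is no independent result. The age effect on Hist1h4i was lower in females than in males by 0.94 ± 0.15 on the log2 scale (interaction -0.94, adjusted p of 0.0105 by edgeR). All old males were above all young males for this gene, whereas in females it stood at 51.7, 63.4, 52.7, 54.1 and 52.6 in old against 61.1, 65.1, 62.2, 64.3 and 64.9 in young mice, where only old female 2 overlapped the young mice. With the leading hashtag for every barcode the adjusted p by edgeR was 0.0643 and no member was called. At an unadjusted p under 0.05 there were 11 of the 36, against 5.93% of all genes, and the term was negative for 31 of 36, against 49.0% of all genes, with a median of -0.56 against 0.01. It was negative for all 6 H3 and all 6 H4 genes tested. In the male pool alone only 10 members had enough counts to be tested, 0 of them H3 and 2 of them H4 genes. Most of the 36 terms therefore rest on male counts too low to be tested alone.

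For Hist2h4 the pools lay apart without a call, on few male counts. In males, where it had too few counts to be tested alone, it stood at 11.7, 9.13, 8.38, 10.9 and 12.1 CPM in old and at 6.55, 2.85, 5.82, 8.18 and 1.65 in young mice. The ages did not overlap in either pool and lay in opposite order, beside 2.12% of all genes without overlap in males and 5.74% in females. The lowest old male (8.38) and the highest young male (8.18) differed by very few UMIs, so the male separation of Hist2h4 is uncertain. Its interaction was -1.79 ± 0.40 (adjusted p of 0.246 by edgeR), from 52 UMIs in the male and 550 in the female pool. Without young male 5 a further member, Hist1h3d, was called (log2 difference -2.54, adjusted p of 0.0420 by edgeR).

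The age effect was then fitted among cells of like Mcm level. Within Mcm-high cells edgeR called 0 of 3 members in males (0.0903% of 2216 genes) and 0 of 28 in females (0.978% of 8593 genes), and DESeq2 called 0 in both. At an unadjusted p under 0.05 there were 3 of 3 in males, Hist1h2ap (0.50), Hist1h2ae (0.71) and Hist1h4i (0.84), all positive, and 7 of 28 in females, against 180 of 2216 and 793 of 8593 of all genes. With a cut of 3 thinned UMIs, 0 of the 2 male members tested reached an unadjusted p under 0.05 by edgeR, and none was called. Of the 28, 20 were negative, with a median of -0.16. Without old female 4, Hist2h4 was called there (log2 fold change -1.20, adjusted p of 0.00876 by edgeR).

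Within Mcm-low cells edgeR called 0 of 9 members in males (0% of 4675 genes, with 1 member and 444 of all genes at an unadjusted p under 0.05 and 0 members by DESeq2). In females it called 2 of 33 (3.69% of 9646 genes), both lower in old mice, Hist1h1c with -0.47 ± 0.08 (adjusted p of 0.00292 by edgeR) and Hist2h4 with -0.76 ± 0.20 (adjusted p of 0.0417 by edgeR). Of the 33, 31 were negative, with a median of -0.34, and the H3 and H4 medians were -0.45 and -0.41. The call of Hist2h4 was lost when any 1 of 9 of the 10 mice was left out, with old female 2 as the exception, and the log2 fold change then lay between -0.86 and -0.65. The Mcm-low fit kept the call of Hist1h1c in all 10 such fits. Whether the age effect differs between Mcm-high and Mcm-low cells was not tested.

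Many genes of the lists for histone mRNA machinery and histone chaperones moved with the Mcm signature. The machinery list also holds Ccne1, Ccne2 and Cdk2, genes of entry into S phase. Of the histone mRNA machinery, 13 of 18 genes tested were higher and 1 lower in female Mcm-high cells, and 6 of 14 higher and 0 lower in males, beside 34.8% higher and 36.2% lower over all genes in females and 19.1% and 19.8% in males, which are also the shares for the lists that follow. They were led by Ccne2 (log2 fold change 3.06 in females and 1.95 in males) and Ccne1 (2.44 and 2.16), the cyclins that start S phase, then Slbp (1.41 and 1.25), which binds the printed stem-loop, and Cdk2 (1.27 and 1.10), the partner of both cyclins. Casp8ap2, which acts in histone mRNA processing, was at 1.22 in males. The single gene lower was Lsm10 (-0.49), part of the U7 particle that cuts histone precursors. Histone chaperones were higher in 14 of 14 and 11 of 12 cases, led by Chaf1b (2.54 and 2.18) and Chaf1a (1.88 and 1.67), which load new H3 and H4 behind the fork, followed by Nasp (1.46 and 1.20) and Hat1 (1.35 and 1.35).

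Replication-independent histones did not move together. Of 10 tested in females 5 were higher and 3 lower, with H1fx at 0.92, H2afy at 0.51, Cenpa at -0.64 and H1f0 at -0.33, and of 9 in males 2 were higher and 4 lower, with H1f0 at -0.80, Cenpa at -0.75, H2afy at 0.39 and H3f3a at -0.23. Of the S-phase genes 19 of 20 were higher in each pool and E2f2 was lower in females (-0.29), a list that holds the 5 genes that define the classes. Among the others, Cdc6, which loads the Mcm helicase, gave 2.75 in females and 2.06 in males, and Gins2, a part of the active helicase, 2.23 and 2.09. Of the mitosis genes 4 of 15 were higher and 9 lower in females and 1 of 14 higher and 4 lower in males, with Ube2c at -0.85 and -1.64, Cdc20 at -0.75 and -1.37, Ccnb1 at -0.59 and -1.21, Hmmr at -0.54 in females and Plk1 at -0.82 in males.

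None of these 5 lists held a gene called for age in either pool, or for the difference between pools, by edgeR or by DESeq2. At an unadjusted p under 0.05 by edgeR there were, in males and females, 3 of 16 and 3 of 18 machinery genes, 2 of 9 and 3 of 10 replication-independent histones and 2 of 12 and 1 of 14 chaperones. There were also 4 of 20 in both pools for S-phase genes and 2 of 15 and 1 of 15 for mitosis genes, beside 10.9% of all genes in males and 16.5% in females. The list medians in females were 0.04 for the machinery, -0.09 for the replication-independent histones, 0.07 for the chaperones, 0.11 for the S-phase genes and -0.00261 for the mitosis genes, beside -0.30 for the replication-dependent histone genes. In males they were 0.04, 0.01, 0.15, 0.21 and 0.30, beside 0.33 for the replication-dependent histone genes.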

How the data were processed

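The deposited counts are UMIs per gene and cell, which the authors made from droplet libraries of the 10x 3′ v3.1 chemistry, 1 per sex. The submitters' processing notes name Cell Ranger 4.0.0 and STAR 2.5.1, while the matrix headers give Cell Ranger 7.0.0 for the male and 3.1.0 for the female pool. Hashtag counts were demultiplexed with HTODemux (Seurat 5.3.0, R 4.3.3), and cells with over 200 genes and under 5% mitochondrial UMIs were kept. Counts were summed per mouse and scaled to its total (CPM), and each mouse was 1 replicate. The members and all lists were chosen with earlier results of these data known, among them the call of Hist1h4i between the pools.

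Tests across genes used edgeR 4.0.16 (TMM scaling, filterByExpr, two-sided quasi-likelihood test, Benjamini-Hochberg adjustment over all genes tested, adjusted p under 0.05), with the mouse as a block between Mcm-high and Mcm-low cells. The fits were tested on simulated data. Shares of cells were compared with exact permutation tests (SciPy 1.17.1). Alternatives were DESeq2 1.42.0, no filter on low counts, other cuts, other demultiplexing, leaving out each mouse and, chosen after seeing the data, thinning each cell to 2000 UMIs. Depth was 330586 to 1108320 UMIs per male and 2827638 to 18186954 per female mouse.

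Named members are those called in any fit, the 12 with the highest mean CPM and the highest of each class. From the other lists, up to 4 called genes with the largest log2 fold change are named. Hist1h2bc in the cell classes and Hist1h3d and Hist1h3e for age were also described after their values were seen. The same holds for Camp, Cd79b and the markers without overlap between the ages among the cell type markers. It also holds for Lsm10 and E2f2 as single genes that were lower.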

Additional observations from a re-analysis of the deposited data

Results flagged for a closer look

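In 5 of the 108 groups of 5 mice examined, 1 mouse stood apart by Dixon's criterion (the gap to its nearest neighbour over the range of the group), which chance gives in about 1 of 20 groups. The ratio was 0.855 for H4 UMIs per 10000 in young females, where young female 2 was highest, 0.796 for Hist1h2ak and 0.793 for Hist1h4i in old females, the latter with old female 2 highest. It was 0.760 for Hist1h1d and 0.750 for Hist1h1b in young females.

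The age effect on Hist1h4i differed between the pools by -0.94 on the log2 scale, female minus male, by the test of the difference itself. This call was known when the members were chosen. Sex, experiment and library cannot be told apart in the difference.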

How the results depend on the processing

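No paired analysis was possible because, between ages, the old and young mice are different animals whose numbers only name their hashtags. Mcm-high and Mcm-low cells come from the same mice, and that fit has the mouse as a block. By age in males, DESeq2 and the fit without a filter on low counts each called 1 member (Hist1h4i). It was among 12 and 59 genes called higher in old mice, of 5656 and 13168 tested. The count of members higher in Mcm-high cells was 0 in males with a cut of 3 and with 4000 UMIs and a cut of 3, and 16 in females with a cut of 3. With every barcode given to its leading hashtag, 5 members were called by age in females and 0 for the difference between the pools. With 4000 UMIs and a cut of 3, 1 member (Hist1h4i) was called by age in female Mcm-high cells. The difference in the share of Mcm-high cells in males turned to -0.132 percentage points with a cut of 3 and -0.553 with 4000 UMIs and a cut of 3, and the log2 fold change of Hist1h4d in female Mcm-high cells turned to -0.11 with a cut of 3. The unadjusted exact permutation p of the mitosis-high share in males was 0.0318 with a cut of 3, 0.0476 without old male 2, 0.492 without old male 4 and 0.564 with 4000 UMIs and a cut of 3. The causes were not tested.

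With each mouse left out in turn, the number of members called by age lay between 2 and 5 in females (5 without old female 4), between 0 and 1 in female Mcm-high cells (1 without old female 4) and between 1 and 3 in female Mcm-low cells, where all mice but old female 2 lowered it to 1. For the difference between pools it lay between 1 and 2 (2 without young male 5). Depth limits the male pool, where 10 members passed the filter on low counts by age, against 42 in females.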
